A study of Mus musculus with 24 samples.

Results

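Dopamine is made, stored, sensed and broken down in the retina by the products of a small group of genes, and 9 of them were followed here among the 28802 genes measured: Th, Ddc, Slc6a3, Slc18a2, Drd1, Drd2, Drd4, Drd5 and Maoa. They were chosen by name, for their roles in dopamine synthesis, transport, reception and breakdown. The study asked how gene expression in the mouse retina relates to the perception of contrast and to refractive development across inbred strains. RNA of whole retinas, freed of ribosomal RNA, was sequenced from wild type mice at postnatal day 28, with 3 libraries for each of 8 strains. The wild-derived strains were WSB/EiJ, CAST/EiJ and PWK/PhJ, and the others were C57BL/6J, NOD/ShiLtJ, 129S1/Svlmj, NZO/HlLtJ and A/J; the sex of the animals and the time of day are not given in the sources used here. The labels name no batches. Values are cpm, the reads of a gene per 1,000,000 reads of its library. The steps between low values put the library totals at 57,607,000 to 78,150,000 reads.

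In the retina dopamine is released by a sparse class of amacrine cells. Tyrosine hydroxylase makes the precursor that aromatic amino acid decarboxylase turns into dopamine, a vesicular transporter loads it for release, and a transporter of the cell membrane takes it back up. Receptors of the D1 type raise cyclic AMP and those of the D2 type lower it; dopamine is released in light and has long been studied as a signal that slows growth of the eye.

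The libraries carried the markers of retina. Crx, a transcription factor of photoreceptors, averaged 393 cpm and Pde6a, of the visual cascade in rods, 585 cpm. The 12 photoreceptor markers together reached 10962 to 13024 cpm as strain means. The 16 markers of amacrine cells summed to 525 cpm in NOD/ShiLtJ and 591 cpm in WSB/EiJ, the lowest and highest strain means. Tissue that adjoins the retina was present in uneven amounts. The 12 lens markers, led by Cryaa at a mean of 74.3 cpm, summed to 1817 cpm in replicate 2 of NOD/ShiLtJ, 1606 cpm in replicate 2 of 129S1/Svlmj and 219 cpm in replicate 2 of C57BL/6J, against 5.39 to 89.1 cpm in the other 21 libraries. None of the lens, pigment or blood markers was at 0 in every library.

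The 12 markers of pigment epithelium and melanocytes, led by Rgr at 12.3 cpm, summed to 82.1 ± 23.6 cpm (SD, n = 3) in WSB/EiJ, 70.9 ± 25.5 cpm in A/J and 61.6 ± 6.76 cpm in 129S1/Svlmj. The sums were 44.9 ± 18.7 cpm in NOD/ShiLtJ, 41.9 ± 13.6 cpm in C57BL/6J, 22.7 ± 4.86 cpm in NZO/HlLtJ, 21.8 ± 6.88 cpm in PWK/PhJ and 19.3 ± 2.03 cpm in CAST/EiJ. The 7 blood markers, led by Hbb-bs, ranged from 12.3 cpm in CAST/EiJ to 28.5 cpm in NOD/ShiLtJ as strain means. The part of these tissues in the strain differences described here was not tested, beyond fits without the 3 libraries rich in lens markers.

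**Figure D1:**
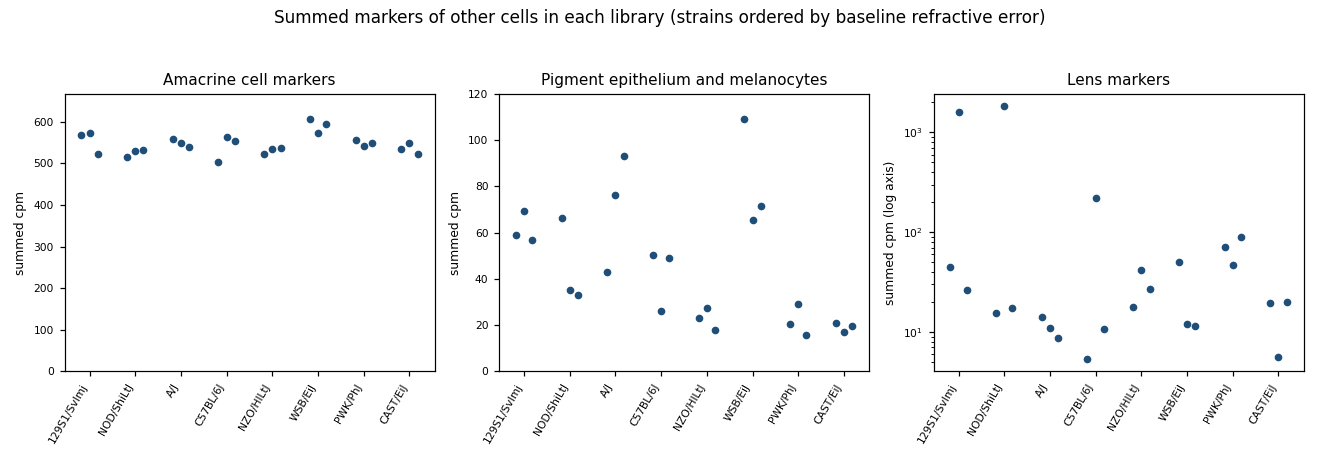
Summed cpm of the markers of amacrine cells, of pigment epithelium and melanocytes, and of lens in each library (points, 3 per strain), with strains from the lowest to the highest baseline refractive error, and with a log axis for lens. Amacrine markers varied little, while lens markers reached 1817 cpm in 1 library of NOD/ShiLtJ.

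Of the 9 genes, 7 had a mean of at least 0.5 cpm and entered the fits over 16400 genes; Ddc and Slc6a3 lay below this limit. Positions are given on GRCm38, from GENCODE. The strains differed in each of the 7 by limma's moderated F-test (q under 0.01), as they did in 97.2% of the genes tested, a share near that of the 7. Without the 3 wild-derived strains the call remained in 5 of the 7 and was lost in Drd4 (q = 0.0143) and Drd5 (q = 0.0438), while the share of the genes tested fell to 50.3%. With no filter on low values, Ddc also passed (q = 0.00351) and Slc6a3 did not (q = 0.0204), against 68.5% of all 28802 genes. The highest strain mean was at least 2 times the lowest in 2 of the 7, Th and Slc18a2, against 22.2% of the genes tested. Over the 28 pairs of strains, limma contrasts called 68 of the 196 combinations of gene and pair (Benjamini-Hochberg adjusted p under 0.01), against 25.2% over the genes tested. They were 18 for Slc18a2, 12 each for Th and Drd2, 10 for Drd1, 6 for Maoa and 5 each for Drd4 and Drd5. The median over the genes tested was 6 pairs per gene, so Maoa, Drd4 and Drd5 did not exceed it. Of the 68 calls, 44 were also made in each of the 24 fits that leave out 1 library. Without the 3 libraries rich in lens markers 56 were also made, and each call lost kept its direction. Some of the lost differences were smaller there and others were not. For Drd5, 129S1/Svlmj exceeded WSB/EiJ by 0.21 there and by 0.29 with all libraries, in log2(cpm + 1). By gene, the calls made in each of the 24 fits were 15 for Slc18a2, 10 for Drd2, 7 each for Th and Drd1, 2 each for Drd4 and Maoa, and 1 for Drd5. Calls kept without 1 library, or without the libraries rich in lens markers, were not counted over all genes tested. Neither baseline refractive error nor form-deprivation myopia, the myopia that follows loss of sharp vision, was associated with any of the 7.

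**Figure D2:**
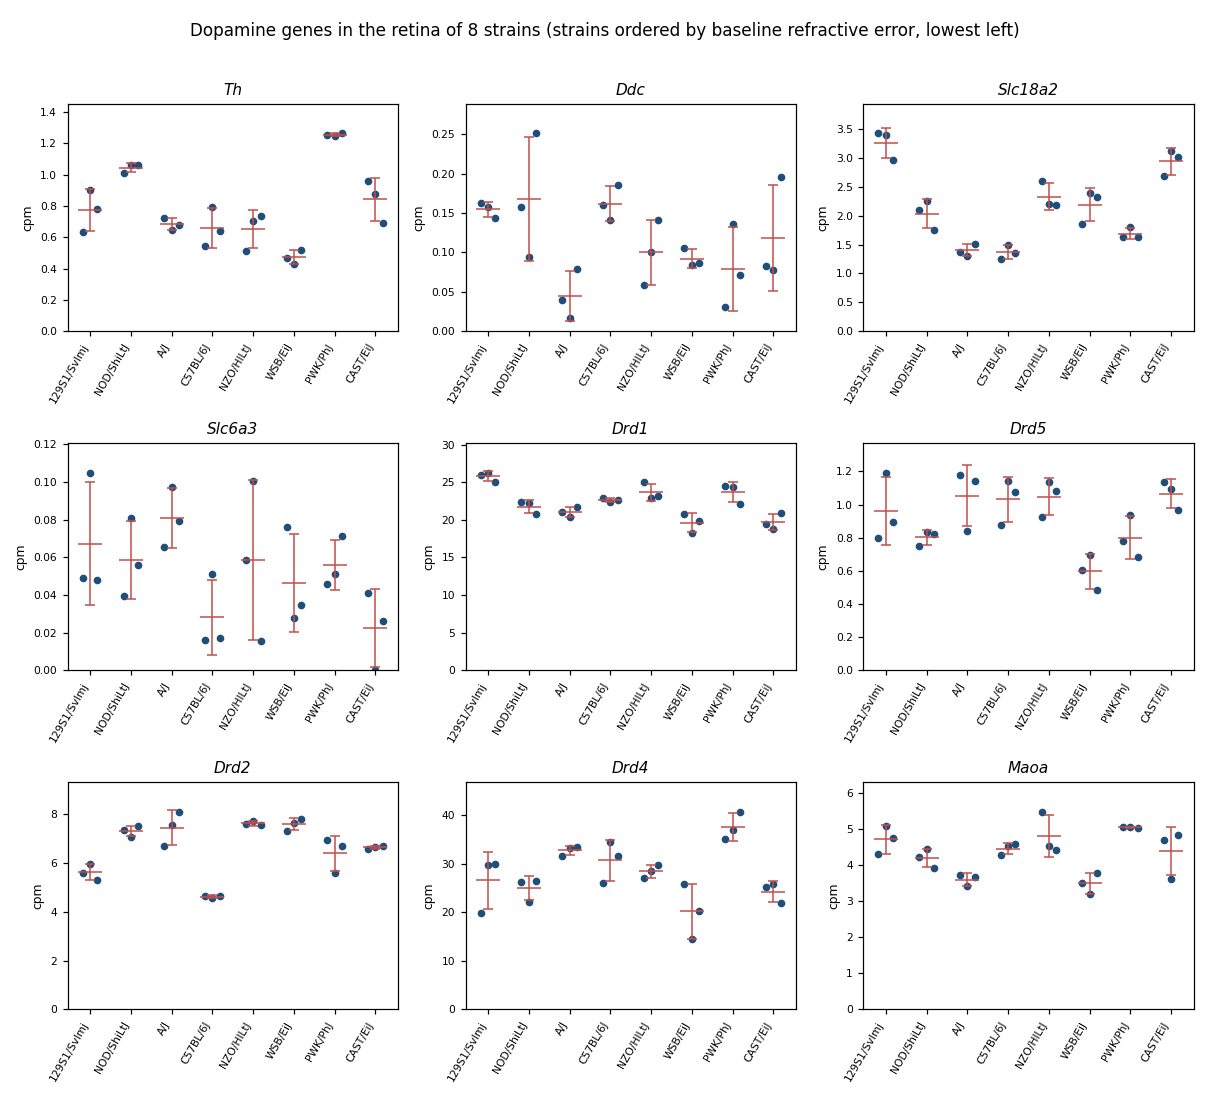
Level in cpm of the 9 genes in each library (blue points) with the strain mean and SD (red, n = 3), strains in order from the lowest to the highest baseline refractive error. Th was highest in PWK/PhJ, Drd2 lowest in C57BL/6J, and the points of Ddc and Slc6a3 stand for few reads.

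Th, which encodes tyrosine hydroxylase, the rate-limiting enzyme of dopamine synthesis (ENSMUSG00000000214; chr7:142892752-142931128, minus strand), ranged over 0.432 to 1.26 cpm. The 3 libraries of PWK/PhJ gave 1.25, 1.25 and 1.26 cpm and those of NOD/ShiLtJ 1.01, 1.06 and 1.06 cpm. These 2 strains stood above all libraries of the other 6, and their ranges did not overlap each other. CAST/EiJ gave 0.959, 0.873 and 0.692 cpm, 129S1/Svlmj 0.634, 0.904 and 0.782 cpm and A/J 0.721, 0.648 and 0.680 cpm. C57BL/6J gave 0.543, 0.793 and 0.640 cpm, NZO/HlLtJ 0.512, 0.704 and 0.737 cpm and WSB/EiJ 0.470, 0.432 and 0.521 cpm. From CAST/EiJ down to WSB/EiJ each strain overlapped the next in this order. The highest strain mean was 2.64 times the lowest, and on the log2(cpm + 1) scale, which understates changes of low values, PWK/PhJ exceeded WSB/EiJ by 0.61 ± 0.07 (SE; adjusted p = 2.46e-07). PWK/PhJ was above 6 strains by the limma contrasts, and NOD/ShiLtJ was above 4; the 2 strains differed by 0.14 ± 0.07 (SE; adjusted p = 0.125), a difference that did not pass. Of the calls of NOD/ShiLtJ, that above WSB/EiJ passed in each fit without 1 library. Its call above A/J passed in 21 of the 24 fits (adjusted p up to 0.0128, without replicate 2 of A/J), that above C57BL/6J in 23 of the 24 fits (adjusted p up to 0.0124, without replicate 1 of C57BL/6J) and that above NZO/HlLtJ in 23 of the 24 fits (adjusted p up to 0.0120, without replicate 1 of NZO/HlLtJ). The call of PWK/PhJ above CAST/EiJ passed in 23 of the 24 fits (adjusted p up to 0.0177, without replicate 3 of CAST/EiJ), and that of 129S1/Svlmj above WSB/EiJ in 20 of the 24 fits (adjusted p up to 0.0331, without replicate 2 of 129S1/Svlmj). The last of these calls was also lost without all 3 libraries rich in lens markers, where the difference was 0.21 in place of 0.26. In whole retina fewer cells that make dopamine and less RNA per cell cannot be told apart. The markers of amacrine cells in general, which do not single out the dopamine cells, summed to 591 ± 17.3 cpm in WSB/EiJ and 548 ± 6.89 cpm in PWK/PhJ, and the part of cell number in the level of Th was not tested.

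Ddc, which encodes the decarboxylase that completes the synthesis of dopamine (ENSMUSG00000020182; chr11:11814101-11898144, minus strand), was close to the limit of detection, taken as 3 reads or 0.0384 to 0.0521 cpm, which covers counting error only. It was represented by 12, 7 and 18 reads in the libraries of NOD/ShiLtJ, 10, 11 and 11 in C57BL/6J and 10, 12 and 9 in 129S1/Svlmj. CAST/EiJ had 6, 6 and 15 reads, NZO/HlLtJ 4, 7 and 9 and WSB/EiJ 7, 6 and 5. PWK/PhJ had 2, 8 and 5 reads and A/J 3, 1 and 5. Every strain overlapped its neighbour in this order, but the sums of A/J, 9 reads (exact Poisson 95% interval 4.12 to 17.1), and of NOD/ShiLtJ, 37 reads (26.1 to 51.0), had separate intervals for counting error. Among strains farther apart in the order, 129S1/Svlmj, C57BL/6J and NOD/ShiLtJ lay above A/J with no overlap in reads or cpm, and both 129S1/Svlmj and C57BL/6J above WSB/EiJ and PWK/PhJ. In the fit with no filter, no pair of strains was called for Ddc (lowest adjusted p = 0.0107, for A/J and NOD/ShiLtJ). Means ran from 0.0450 ± 0.0318 cpm in A/J to 0.168 ± 0.0790 cpm in NOD/ShiLtJ (SD, n = 3). The enzyme that follows tyrosine hydroxylase was read at 0.0258 cpm per kb of exon against 0.337 for Th, as means of 24 libraries. An antisense gene that overlaps Ddc without sharing exon bases, 1700042O10Rik, is not in the table.

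Slc18a2, which encodes the vesicular monoamine transporter that fills vesicles with dopamine (ENSMUSG00000025094; chr19:59260896-59296012, plus strand), had the most strain pairs called, 18 of 28. Libraries of 129S1/Svlmj gave 3.43, 3.41 and 2.97 cpm and those of CAST/EiJ 2.69, 3.12 and 3.03 cpm. NZO/HlLtJ gave 2.61, 2.21 and 2.18 cpm, WSB/EiJ 1.86, 2.40 and 2.33 cpm and NOD/ShiLtJ 2.10, 2.26 and 1.76 cpm. The first 2 strains lay above all others with no overlap, and the next 3 overlapped their neighbours. PWK/PhJ gave 1.64, 1.81 and 1.63 cpm, A/J 1.38, 1.31 and 1.52 cpm and C57BL/6J 1.25, 1.497 and 1.36 cpm. A/J and C57BL/6J overlapped each other and lay below the other 6 strains. 129S1/Svlmj exceeded C57BL/6J by 0.85 ± 0.08 (SE; adjusted p = 1.12e-08) and CAST/EiJ exceeded C57BL/6J by 0.74 ± 0.08 (SE; adjusted p = 1.12e-07) in log2(cpm + 1). Without the libraries rich in lens markers 129S1/Svlmj exceeded C57BL/6J by 0.86 ± 0.10 (SE; adjusted p = 4.31e-07). In the same fit the call of NOD/ShiLtJ above A/J was lost (adjusted p = 0.0157), with A/J minus NOD/ShiLtJ at -0.28 in place of -0.34. The call of NOD/ShiLtJ above A/J passed in 22 of the 24 fits (adjusted p up to 0.0146, without replicate 2 of NOD/ShiLtJ), the call of CAST/EiJ above WSB/EiJ in 21 of the 24 fits (adjusted p up to 0.0347, without replicate 1 of WSB/EiJ) and that of NZO/HlLtJ above PWK/PhJ in 21 of the 24 fits (adjusted p up to 0.0303, without replicate 1 of NZO/HlLtJ). The order of strains was unlike that of Th, with a correlation of r = -0.04 between the 8 strain means of the 2 genes, a description of values from the same libraries. The antisense gene Gm29261 shares 111 exon bases (2.12%) with Slc18a2 but reached at most 0.0294 cpm in any library.

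Slc6a3, which encodes the dopamine transporter of the cell membrane (ENSMUSG00000021609; chr13:73536747-73578672, plus strand), was the lowest of the 9. It was represented by 5, 6 and 5 reads in the libraries of A/J, 3, 8 and 3 in 129S1/Svlmj and 3, 6 and 4 in NOD/ShiLtJ. NZO/HlLtJ had 4, 7 and 1 reads, PWK/PhJ 3, 3 and 5 and WSB/EiJ 5, 2 and 2. C57BL/6J had 1, 4 and 1 reads and CAST/EiJ 3, 0 and 2, where 0 stands for a library listed at 0.0001 cpm, the value the authors added. Under 3 reads were found in 7 of the 24 libraries, and every strain overlapped its neighbour in the order. Farther apart, A/J lay above C57BL/6J and CAST/EiJ with no overlap in reads or cpm. The exact Poisson 95% intervals of the summed reads, 9.15 to 26.0 in A/J and 1.62 to 11.7 in CAST/EiJ, overlapped. In the fit with no filter, the lowest adjusted p of a pair was 0.0361, for these same strains, and none passed.

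The D1-type receptors are encoded by Drd1 (ENSMUSG00000021478; chr13:54051183-54055705, minus strand) and Drd5 (ENSMUSG00000039358; chr5:38319367-38322518, plus strand). Drd1 averaged 25.8 ± 0.662 cpm (SD, n = 3) in 129S1/Svlmj, 23.7 ± 1.35 cpm in PWK/PhJ, 23.7 ± 1.13 cpm in NZO/HlLtJ and 22.6 ± 0.280 cpm in C57BL/6J. It averaged 21.7 ± 0.875 cpm in NOD/ShiLtJ, 21.0 ± 0.631 cpm in A/J, 19.7 ± 1.06 cpm in CAST/EiJ and 19.6 ± 1.30 cpm in WSB/EiJ. The whole span was 1.31-fold, the smallest among the 7 genes tested, and among neighbours in this order only 129S1/Svlmj and PWK/PhJ, and NZO/HlLtJ and C57BL/6J, did not overlap. 129S1/Svlmj was above 4 strains by the limma contrasts, and CAST/EiJ and WSB/EiJ were each below 4; 129S1/Svlmj exceeded WSB/EiJ by 0.38 ± 0.05 (SE; adjusted p = 6.27e-06), and by 0.36 ± 0.06 (SE; adjusted p = 0.000114) without the libraries rich in lens markers. Of the 10 pairs called for Drd1, 7 passed in each fit without 1 library. The call of C57BL/6J above CAST/EiJ passed in 14 of the 24 fits (adjusted p up to 0.0466, without replicate 2 of CAST/EiJ), that of C57BL/6J above WSB/EiJ in 19 of the 24 fits (adjusted p up to 0.0461, without replicate 2 of WSB/EiJ) and that of 129S1/Svlmj above NOD/ShiLtJ in 23 of the 24 fits (adjusted p up to 0.0107, without replicate 3 of NOD/ShiLtJ). Without the libraries rich in lens markers the 3 differences were 0.20 ± 0.06 (SE; adjusted p = 0.0187), 0.20 ± 0.06 (SE; adjusted p = 0.0152) and 0.24 ± 0.07 (SE; adjusted p = 0.0110), in that order; none passed, though none shrank from 0.19, 0.20 and 0.24 with all libraries. Drd5 averaged 1.07 ± 0.0887 cpm in CAST/EiJ, 1.05 ± 0.184 cpm in A/J, 1.05 ± 0.111 cpm in NZO/HlLtJ and 1.03 ± 0.136 cpm in C57BL/6J. It averaged 0.961 ± 0.206 cpm in 129S1/Svlmj, 0.801 ± 0.0462 cpm in NOD/ShiLtJ, 0.800 ± 0.130 cpm in PWK/PhJ and 0.596 ± 0.105 cpm in WSB/EiJ. Every strain overlapped its neighbour, and all 5 pairs called set WSB/EiJ below another strain, with CAST/EiJ higher by 0.37 ± 0.08 (SE; adjusted p = 0.000974). That call of CAST/EiJ passed in each fit without 1 library, and the other 4 did not. The call of 129S1/Svlmj passed in 20 of the 24 fits (adjusted p up to 0.0572, without replicate 2 of 129S1/Svlmj), a library rich in lens markers. The call of A/J passed in 23 of the 24 fits (adjusted p up to 0.0105, without replicate 3 of WSB/EiJ), that of C57BL/6J in 22 of the 24 fits (adjusted p up to 0.0141, without replicate 3 of WSB/EiJ) and that of NZO/HlLtJ in 23 of the 24 fits (adjusted p up to 0.0111, without replicate 3 of WSB/EiJ). The antisense gene Gm26560 covers 48.6% of the exon bases of Drd5, and its own level averaged 0.0401 cpm. The paper names a stranded kit for the libraries, but the sources used here do not say whether strands were kept apart in counting. How far reads of one gene entered the level of the other therefore cannot be told.

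Of the D2-type receptors, Drd2 (ENSMUSG00000032259; chr9:49340627-49408177, plus strand) encodes the receptor that also serves as the autoreceptor of dopamine cells, and Drd4 (ENSMUSG00000025496; chr7:141292006-141296464, plus strand) encodes the D2-type receptor of photoreceptors. Drd2 set C57BL/6J apart: its libraries gave 4.67, 4.56 and 4.66 cpm, and those of 129S1/Svlmj, the next strain, 5.59, 5.95 and 5.30 cpm. PWK/PhJ gave 6.92, 5.59 and 6.69 cpm and CAST/EiJ 6.59, 6.64 and 6.70 cpm. NOD/ShiLtJ gave 7.37, 7.08 and 7.50 cpm and A/J 6.70, 7.56 and 8.10 cpm. C57BL/6J lay below every library of the other 7 strains, and the limma contrasts with all 7 passed. WSB/EiJ gave 7.32, 7.63 and 7.81 cpm and NZO/HlLtJ 7.58, 7.73 and 7.56 cpm. CAST/EiJ did not overlap NOD/ShiLtJ above it, whereas the upper 4 strains, NOD/ShiLtJ, A/J, WSB/EiJ and NZO/HlLtJ, each overlapped the next. NZO/HlLtJ exceeded C57BL/6J by 0.62 ± 0.07 (SE; adjusted p = 8.82e-08), and the smallest of the 7 differences, from 129S1/Svlmj, was 0.23 ± 0.07 (SE; adjusted p = 0.00781). This smallest difference did not pass without the 3 libraries rich in lens markers, at 0.19 ± 0.08 (SE; adjusted p = 0.0855), and without 1 library it passed in 11 of the 24 fits (adjusted p up to 0.0397, without replicate 2 of 129S1/Svlmj). The other 6 differences of C57BL/6J passed in each of those fits. The call between NZO/HlLtJ and PWK/PhJ passed in 5 of the 24 fits (adjusted p up to 0.0887, without replicate 2 of PWK/PhJ). Neither strain has a library rich in lens markers: without those libraries the difference stayed at 0.23 and the adjusted p was 0.0122.

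Drd4 averaged 37.6 ± 2.85 cpm (SD, n = 3) in PWK/PhJ, 32.8 ± 0.958 cpm in A/J, 30.7 ± 4.24 cpm in C57BL/6J and 28.4 ± 1.28 cpm in NZO/HlLtJ. It averaged 26.6 ± 5.79 cpm in 129S1/Svlmj, 24.99 ± 2.43 cpm in NOD/ShiLtJ, 24.3 ± 2.13 cpm in CAST/EiJ and 20.3 ± 5.66 cpm in WSB/EiJ. PWK/PhJ lay above A/J with no overlap, and all lower neighbours overlapped. PWK/PhJ exceeded WSB/EiJ by 0.89 ± 0.15 (SE; adjusted p = 5.14e-05), and 5 pairs were called. Without the libraries rich in lens markers NOD/ShiLtJ was no longer called below PWK/PhJ, nor C57BL/6J above WSB/EiJ (adjusted p = 0.0198 and 0.0145). These differences were -0.49 and 0.52 in that fit, in place of -0.57 and 0.60. The same fit called 2 pairs not called before, 129S1/Svlmj below PWK/PhJ and NZO/HlLtJ above WSB/EiJ (adjusted p = 0.00558 and 0.00844), so its count was also 5. The call of NOD/ShiLtJ below PWK/PhJ passed in 21 of the 24 fits (adjusted p up to 0.0248, without replicate 2 of NOD/ShiLtJ), that of CAST/EiJ below PWK/PhJ in 22 of the 24 fits (adjusted p up to 0.0158, without replicate 3 of CAST/EiJ) and that of C57BL/6J above WSB/EiJ in 21 of the 24 fits (adjusted p up to 0.0287, without replicate 2 of WSB/EiJ). Libraries of WSB/EiJ gave 25.9, 14.6 and 20.3 cpm. The photoreceptor markers of these 3 libraries summed to 12610, 10151 and 11002 cpm, in the same order. Libraries of 129S1/Svlmj, also apart, gave 19.9, 29.8 and 30.0 cpm of Drd4 beside sums of 11095, 11862 and 10987 cpm in another order. In PWK/PhJ the order was the opposite, with 35.2, 36.9 and 40.7 cpm of Drd4 beside sums of 12956, 12600 and 12102 cpm. A/J, second in Drd4, had the lowest mean sum of photoreceptor markers, 10962 cpm, and the part of photoreceptor number in the level of Drd4 was not tested.

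Maoa, which encodes monoamine oxidase A, an enzyme of dopamine breakdown (ENSMUSG00000025037; chrX:16619698-16687818, plus strand), averaged 5.05 ± 0.0141 cpm (SD, n = 3) in PWK/PhJ, 4.82 ± 0.579 cpm in NZO/HlLtJ, 4.73 ± 0.398 cpm in 129S1/Svlmj and 4.47 ± 0.165 cpm in C57BL/6J. It averaged 4.39 ± 0.672 cpm in CAST/EiJ, 4.21 ± 0.258 cpm in NOD/ShiLtJ, 3.61 ± 0.169 cpm in A/J and 3.502 ± 0.299 cpm in WSB/EiJ. The 6 pairs called set A/J and WSB/EiJ each below PWK/PhJ, NZO/HlLtJ and 129S1/Svlmj, and NOD/ShiLtJ and A/J were the only neighbours that did not overlap. PWK/PhJ exceeded WSB/EiJ by 0.43 ± 0.08 (SE; adjusted p = 0.000279). Both calls of 129S1/Svlmj were lost without the libraries rich in lens markers (adjusted p = 0.0342 and 0.0174). Its difference from A/J was 0.27 there and 0.31 with all libraries, and that from WSB/EiJ was 0.30 and 0.35. Without 1 library, the call of 129S1/Svlmj above A/J passed in 20 of the 24 fits (adjusted p up to 0.0289, without replicate 2 of 129S1/Svlmj), that of 129S1/Svlmj above WSB/EiJ in 22 of the 24 fits (adjusted p up to 0.0145, without replicate 2 of WSB/EiJ), that of NZO/HlLtJ above A/J in 22 of the 24 fits (adjusted p up to 0.0285, without replicate 1 of NZO/HlLtJ) and that of NZO/HlLtJ above WSB/EiJ in 23 of the 24 fits (adjusted p up to 0.0134, without replicate 1 of NZO/HlLtJ). Both calls of PWK/PhJ passed in each of those fits. A/J and WSB/EiJ had the highest sums of pigment cell markers, but 129S1/Svlmj, among the highest in Maoa, had the next highest sum, and the part of those cells in the level of Maoa was not tested.

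Per length, the receptors Drd4, Drd1 and Drd2 were read far more often than the genes of synthesis and transport. Means over the 24 libraries were 8.34 cpm per kb of exon for Drd4, 6.13 for Drd1, 2.61 for Drd2 and 1.04 for Maoa. They were 0.413 cpm per kb for Slc18a2, 0.337 for Th, 0.292 for Drd5 and 0.0151 for Slc6a3. The lengths are exons of GENCODE, whereas the paper names RefSeq as the annotation for counting, so these values are approximate. Over the 8 strain means r was positive for every pair among Th, Drd1, Drd4, Drd5 and Maoa, from 0.00500 for Th and Drd5 upward. Drd1 and Maoa were the most alike pair (r = 0.75) and Slc18a2 and Drd4 the least alike (r = -0.56), as descriptions of values that share libraries and depth. WSB/EiJ was the lowest strain in those same 5 genes, but among the 3 highest in Drd2. The 5 were grouped by these same values, and a strain that is lowest in each of them raises r among them. How many of the genes tested were lowest in WSB/EiJ was not counted.

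Each gene was then compared with the refraction of the strains, measured in other mice, so that each strain has 1 mean of each phenotype. By the paper's methods, both phenotypes were measured at later ages than that of the sequenced retinas. Form-deprivation myopia was the difference in refraction between an eye that had worn a diffuser and the untreated eye. Diffuser wear is not described for the mice whose retinas were sequenced. Levels at the later ages, or under a diffuser, were not tested. From the lowest to the highest baseline refractive error the strains ran 129S1/Svlmj, NOD/ShiLtJ, A/J, C57BL/6J, NZO/HlLtJ, WSB/EiJ, PWK/PhJ and CAST/EiJ. By limma regression with each library as a replicate, 0 of the 7 genes were associated at q under 0.01, against 15.5% of the genes tested. At an unadjusted p under 0.05 there was 1, Drd1, against 35.6% of the genes tested. Drd1 was lower in strains with higher values: its fitted difference was -0.20 ± 0.08 log2(cpm + 1) (SE) from 129S1/Svlmj to CAST/EiJ (t = -2.54, q = 0.0309). The other 6 had q of 0.149 to 0.429, with fitted differences of -0.09 for Slc18a2 to 0.19 for Drd2. Leaving out a single strain changed the call of 2 genes. Without 129S1/Svlmj, the strain at the low end, Slc18a2 turned positive (t = 3.23, q = 0.00843) and Drd1 was near 0 (t = -0.39), whereas without PWK/PhJ Drd1 passed (t = -3.94, q = 0.00512). Of the 16400 genes tested, 3472 passed without 129S1/Svlmj and 1770 without PWK/PhJ, in place of 2542 with all strains. Without the libraries rich in lens markers 0 of the 7 passed for either phenotype by limma, and Drd1 gave t = -1.84 with q = 0.0949.

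Form-deprivation myopia increased in order from NZO/HlLtJ through NOD/ShiLtJ, A/J, C57BL/6J, 129S1/Svlmj, PWK/PhJ and WSB/EiJ to CAST/EiJ. Of the 7 genes, 0 were associated with it by limma, against 10.9% of the genes tested. That share varied with the libraries of CAST/EiJ: the 1793 genes behind it became 727 to 994 without a single library of that strain and 312 without all 3, with 0 of the 7 in each of these fits. Without NZO/HlLtJ they became 3390, also with 0 of the 7. With all libraries 1 of the 7, again Drd1, had an unadjusted p under 0.05, against 31.4%. The fitted difference of Drd1 was -0.21 ± 0.09 from NZO/HlLtJ to CAST/EiJ (t = -2.22, q = 0.0664). Slc18a2 had the largest positive fitted difference, 0.28 ± 0.22 (t = 1.29, q = 0.210), and Th gave 0.09 ± 0.15. A p that misses the threshold does not show that the levels are unrelated to either phenotype.

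With the strain as the unit, none of the 7 genes passed. Over the 8 strain means Drd1 gave Pearson r = -0.51 with baseline refractive error (exact permutation p = 0.192, adjusted p = 0.616 over the genes tested) and a Spearman rank correlation of -0.38 (exact permutation p = 0.360, adjusted p = 0.752), two-sided. Without 129S1/Svlmj and CAST/EiJ, the strains farthest from the median, r was 0.29, so the negative relation rested on those 2 strains. With form-deprivation myopia Drd1 gave r = -0.46 (exact permutation p = 0.247, adjusted p = 0.739) and a rank correlation of -0.33 (exact permutation p = 0.428, adjusted p = 0.852), and r = 0.0076 without NZO/HlLtJ and CAST/EiJ. Th gave r = 0.12 and a rank correlation of 0.02 with baseline refractive error (exact permutation p = 0.779 and 0.977; adjusted p = 0.926 and 0.993), and r = 0.12 without the 2 farthest strains. The exact permutation p of r was at least 0.192 in all 14 relations of the 7 genes with the 2 phenotypes. An exact permutation p under 0.05 was reached by 9.51% of the genes tested with baseline refractive error and by 7.16% with form-deprivation myopia. Beside shares this low, 0 of 7 genes says little about these genes. By this test an adjusted p under 0.05 was reached by 0 of the 16400 genes for either phenotype, where the smallest were 0.492 and 0.651.

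Genes that act beside the 9 were read against the same threshold, q under 0.01, which 15.5% of the genes tested passed with refraction and 10.9% with form-deprivation myopia. These shares depend on the strains fitted: without CAST/EiJ 1047 and 312 genes passed, and without the 3 wild-derived strains 348 and 373, in place of 2542 and 1793. They also rose, to 3100 and 3390 genes without NZO/HlLtJ and to 3472 and 2135 without 129S1/Svlmj. Each call in these lists treats the 24 libraries as replicates; with the strain mean as the unit, limma called 0 of the 16400 genes for either phenotype, so every call named here was lost, and with strain as a random effect it called 208 and 117. No list was tested against the rest of the genes. Of 12 genes of cofactor supply and dopamine turnover, 7 were tested, and 2 fell with rising refraction, among them Qdpr, which regenerates the cofactor tetrahydrobiopterin (t = -6.78). Pts, of the synthesis of that cofactor, fell with form-deprivation myopia (t = -3.43). Qdpr averaged 9.22 cpm in 129S1/Svlmj and 5.47 cpm in CAST/EiJ, the ends of the refraction order. Of 22 genes of receptor signalling, 21 were tested, and 2 fell with refraction, Grk3, a receptor kinase (t = -5.60), and Gnal, a G protein subunit (t = -4.45), while Prkar2b (t = -3.80) and Pde1b (t = -3.63) fell with form-deprivation myopia. These 2 of 21 are no larger a share than over the genes tested. The median t with refraction was -1.77 in the first list and -0.25 in the second, against -0.23 over the genes tested; with form-deprivation myopia it was -0.56 and -0.95, against -0.27.

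Of 13 genes known from dopamine neurons of the brain, 10 were in the table and 8 were tested. With refraction 3 rose, among them Ret, a receptor of neurotrophic factors (t = 4.84), and Slc10a4, of synaptic vesicles (t = 3.71), and Gpr37 fell (t = -3.42). With form-deprivation myopia 2 rose, among them Slc10a4 (t = 4.44), and Gpr37 fell (t = -3.47). Slc10a4 averaged 2.08 cpm in PWK/PhJ and 1.68 cpm in CAST/EiJ, and at most 0.730 cpm in the other 6 strains. The median t of this list was 2.71 with refraction and 2.31 with form-deprivation myopia. Nr4a2, 1 of those that passed with neither phenotype, gave t = 0.60 and 0.59. Means of the 8 tested ran from 0.931 cpm for Slc10a4 to 46.7 cpm for Gpr37, against 0.798 cpm for Th. The part of dopamine cells in these levels was not tested. Among 12 other monoamine genes, 10 were in the table and 4 were tested. Slc6a2, the noradrenaline transporter gene, averaged 10.1 cpm in CAST/EiJ and 0.161 to 0.503 cpm in the other 7 strains. It passed the filter on low values through CAST/EiJ, the strain at the end of both phenotype scales, so nothing is read from its t of 4.19 with form-deprivation myopia. Tph2, of serotonin synthesis, fell with refraction (t = -3.62) and averaged 0.0961 cpm in CAST/EiJ.

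Markers of cell classes are given in the same terms, against the same shares over the genes tested. Of 16 amacrine markers tested, Meis2 rose with refraction (t = 4.42) and Gad1, of GABA synthesis, with form-deprivation myopia (t = 5.64); median t was 0.46 and 1.20. Of 12 photoreceptor markers, Pde6a (t = 3.93), Crx (t = 3.88) and Rcvrn (t = 4.02) rose with refraction and 0 passed with form-deprivation myopia by limma; median t was 1.02 and 0.61. Of 9 horizontal and bipolar cell markers tested, Prkca rose with refraction (t = 3.30), Cabp5 rose (t = 4.42) and Vsx1 fell (t = -3.60) with form-deprivation myopia; median t was -0.30 and -0.16. Of 9 ganglion cell markers, Thy1 fell with refraction (t = -4.13), with median t of -1.82 and -1.23. The cell classes hold the receptors, and their part in the receptor levels was not tested.

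Markers of adjoining tissue were read the same way. Of 9 pigment cell markers tested, Tyr (t = -5.00), Pmel (t = -4.80), Dct (t = -4.16) and Ttr (t = -3.25) fell with rising refraction and 0 passed with form-deprivation myopia; median t was -3.08 and -0.14. Of 4 blood markers tested, Hba-a2 (t = -4.46) and Hbb-bs (t = -3.28) fell with refraction and Hbb-bt (t = -3.44) with form-deprivation myopia; median t was -2.24 and -2.07. Of the 12 lens markers 0 passed for either phenotype, with median t of -1.56 and -0.45. The part of these cells in the values of the dopamine genes against either phenotype was not tested. Sncg stands in the lists of both dopamine neurons and ganglion cells.

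The genes whose levels over the 24 libraries were most like each of the 7 were named as a description, since libraries of a strain share its alleles. For Th they were Prob1 (r = 0.91), Caln1 (r = 0.87) and Ldb1 (r = 0.86). For Slc18a2 they were Clip4 (r = 0.88), Snap23 (r = 0.84) and Epha5 (r = 0.82), and for Drd1 Sec61a2 (r = 0.91), Thoc7 (r = 0.86) and Lmbr1 (r = 0.86). The 3 named for Th were, like Th, highest in PWK/PhJ and lowest in WSB/EiJ. For Drd2 they were Gm4875 (r = 0.89), Gm9825 (r = 0.84) and H4f16 (r = 0.83), each lowest in C57BL/6J. For Drd4 they were Keap1 (r = 0.91), Flywch1 (r = 0.87) and Dcaf7 (r = 0.87), for Drd5 Etfbkmt (r = 0.82), Macf1 (r = 0.80) and Wdr70 (r = 0.80) and for Maoa Ilf2 (r = 0.87), Tmem87b (r = 0.85) and Timm10 (r = 0.83).

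Letters of known motifs were looked for, on both strands, in the 250 bases before the start of each gene in RefSeq promoters of GRCm38.p6, which hold all 9 genes in 11 entries. The motifs were picked after the levels were known. The full cyclic AMP response element TGACGTCA was in 1.55% of all 32851 promoters and, of the 9 genes, in that of Th. The E-box CACGTG was in 6.02% and, of the 9, in that of Slc6a3. The GC box GGGGCGGGG was in 10.4% and, of the 9, in those of Drd1, Drd2, Drd4 and Drd5. TAATCC, letters bound by the photoreceptor factor CRX, was in 6.25% and in none of the 9. A match is a description of letters, and an absent match says only that the letters are not in this window. The promoter of Th, the gene with the widest span between strains among the 7, is shown for the 100 bases before its start in RefSeq, which lies inside the longer span that GENCODE gives for Th. This stretch is chr7:142899996-142900095 on the minus strand, as the reference has it, with the cyclic AMP response element, 45 to 38 bases before the start, in capitals.
Th: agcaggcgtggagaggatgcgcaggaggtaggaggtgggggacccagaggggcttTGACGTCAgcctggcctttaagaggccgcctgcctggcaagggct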

How the data were processed

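Retinal RNA of 24 mice, 3 for each of 8 strains, was measured, and all columns of the deposited table were used. The deposited values are cpm, made by the authors from gene counts divided by the library's total read count, with 0.0001 added. By the submitters' processing notes reads were aligned to GRCm38 (mm10) with STAR and counted in Partek; versions were not given. Between 90.2% and 91.9% of the low values of each library lay within 0.1 of a whole read. The 9 genes and the gene lists were chosen with earlier results of these data known.

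Genes averaging 0.5 cpm or more were fitted in limma (version 3.58.1, R 4.3.3; lmFit, eBayes with trend) on log2(cpm + 1), two-sided. Strains were compared by the moderated F-test and by contrasts of the 28 pairs, with Benjamini-Hochberg adjustment over all genes and pairs. Each phenotype's strain mean, from the study's supplement, was regressed on over the 24 libraries with Storey's q. Strain means were correlated with phenotypes by exact permutation over all orders of the 8 strains, with Benjamini-Hochberg adjustment over the genes tested (Python 3.11.15, SciPy 1.17.1). Lengths are unions of exons in GENCODE M21; the paper names RefSeq for counting, while the table's identifiers are of Ensembl type.

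Named genes are the 9, in each list at most the 4 associated genes with the largest absolute t per phenotype, the 3 genes most correlated with each of the 7 over the 24 libraries, and overlapping genes; not every gene within these limits is named. Further examples within strains and contrasts were chosen after their values were seen. Alternatives were another pseudocount (0.1), no filter, a mean of at least 5 cpm, other scaling by median ratio or quantiles, Benjamini-Hochberg adjustment, q under 0.05, strain means, strain as a random effect, phenotype ranks, and fits without each library, each strain or the 3 wild-derived strains. Fits without libraries rich in lens markers (over 200 cpm summed) were added after seeing the data.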

Additional observations from a re-analysis of the deposited data

How the results depend on the processing

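Among counts of genes or pairs recomputed under other settings, 147 stayed within 1.5 times the count reported and 6 moved. Association counts of 0 that stayed 0 are among the 147, so this tally is no measure of how firm the results are. With the strain mean as the unit 0 of the 16400 genes were called, so there the count of 0 could not have moved. With a mean of at least 5 cpm, 3 genes differed between strains and 28 pairs were called, since fewer of the genes pass that filter. Within 1.5 times, 5 genes differed between strains without the 3 wild-derived strains, where Drd4 and Drd5 were lost, against 50.3% of the genes tested. Also within that limit, 8 differed with no filter, where Ddc was added, against 68.5% of all 28802 genes. Without the 3 wild-derived strains 21 pairs were called, with fewer pairs to compare. The count associated with baseline refractive error became 1 at q under 0.05 (Drd1, t = -2.54), against 5224 of the 16400 genes tested. It became 1 without 129S1/Svlmj (Slc18a2), against 3472 genes, and 1 without PWK/PhJ (Drd1, t = -3.94), against 1770 genes. The cause of these changes was not tested. Without each library in turn, 61 to 70 pairs were called. Pairs called under these other settings were not counted over all genes tested.

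Of the values of single genes, 581 kept their direction and side of the threshold, 39 changed sign and 2, both of Drd1, passed the threshold with their sign kept. Slc18a2 without 129S1/Svlmj, among the 39, also passed (q = 0.00843). The cause was not tested. Changes of sign in t with baseline refractive error were these. Quantile normalization gave 0.124 for Drd5. Fits without the wild-derived strains gave -1.27 for Th and 0.895 for Drd5. Phenotype ranks gave 0.028 for Slc18a2 and -0.0388 for Drd4. Without 129S1/Svlmj, t was 3.23 for Slc18a2 and -0.294 for Drd4. It was -0.122 for Drd4 without NOD/ShiLtJ, -0.214 for Maoa without A/J and 0.195 for Drd5 without WSB/EiJ. Without PWK/PhJ it was -1.08 for Th, 0.0713 for Slc18a2, -1.19 for Drd4 and -0.639 for Maoa. Without the libraries rich in lens markers, a setting chosen after seeing the data, it was 0.261 for Slc18a2 and 0.056 for Drd5. Over the fits without 1 library it ran from -0.897 to 0.299 for Slc18a2, -0.537 to 0.551 for Drd4 and -0.842 to 0.0135 for Drd5.

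With form-deprivation myopia, fits without the wild-derived strains gave t of -0.164 for Slc18a2, 0.2 for Drd1 and 0.0368 for Drd4. Without NZO/HlLtJ, t was -0.321 for Th, 0.322 for Drd2, 0.167 for Drd5 and 0.4 for Maoa, and without CAST/EiJ it was -0.222 for Slc18a2. Without the 2 strains farthest from the median phenotype, r over strain means became 0.357 for Slc18a2 and 0.294 for Drd1 with baseline refractive error. With form-deprivation myopia it became -0.232 for Th, 0.0076 for Drd1, 0.0185 for Drd2 and 0.0501 for Maoa.

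Each strain has 1 phenotype value for its 3 libraries, so the fits over 24 libraries treat as replicates what are 8 independent strains. With the strain mean as the unit, or strain as a random effect, 0 of the 7 genes were associated with either phenotype by limma. Depth limits Ddc and Slc6a3, where a few reads make up each value, and the log2(cpm + 1) scale shrinks differences of Th and Drd5. Strain alleles that change how reads map to the reference genome were not tested.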
